A study of Mus musculus with 18 samples.

Results

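The comparison described here sets mouse embryonic stem cells labelled KO against cells labelled Rescue on the arrays titled 0h, before any 4-hydroxytamoxifen was given. It holds 6 of the 18 arrays of the series, 3 of each line, chosen by their titles; each of the slide letters a, b and c gave 1 array of each line. Per the labels, both lines were of strain 129SV, both lacked Esrrb, and both expressed Raf-ErT2, a Raf kinase that 4-hydroxytamoxifen switches on. The KO line then received an empty vector and the Rescue line an Esrrb transgene. Both grew in serum with LIF and 2 uM Chir99021, an inhibitor of the kinase GSK3, and spent the last 24 h in serum with LIF and 250 nM PD173074, an FGF receptor inhibitor. For each sample 100 ng of total RNA was labelled. The later arrays used here are titled 8h, after 8 h of 250 nM 4-hydroxytamoxifen, and 8h2h, where a Mek inhibitor followed for 2 h; these times were taken from the titles, since the treatment text also names 2 h of 4-hydroxytamoxifen, which no title holds. The labels give neither the promoter of the transgene nor whether a line was 1 clone, and do not say that the letters are separate cultures, so p-values measure the spread between these arrays. A group kept its position from slide to slide, so position and line cannot be told apart.

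Esrrb is an orphan nuclear receptor that binds DNA in the naive pluripotent state, where LIF and inhibition of GSK3 keep mouse embryonic stem cells self-renewing. YAP and TAZ are coactivators held in the cytoplasm by the Hippo kinases; in the nucleus they bind the TEAD factors and switch on genes of adhesion, matrix and the cytoskeleton. Imprinted genes are read from 1 parental copy, set by DNA methylation inherited from egg or sperm, and stem cell cultures are known to gain or lose such marks.

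The gene that separates the lines by label was read first. Esrrb had log2 levels of 5.08, 4.74 and 5.27 on KO arrays a, b and c, against 4.13, 4.21 and 4.87 on Rescue arrays a, b and c. The KO arrays were not below the Rescue arrays: the groups overlapped, and KO minus Rescue was 0.63 ± 0.26 on the log2 scale (SE; adjusted p = 0.118 in limma). At both later titles every KO array lay above every Rescue array. At 8h the lowest KO array, b, stood at 3.499 and the highest Rescue array, a, at 2.15. At 8h2h the same arrays were again the lowest and the highest, at 3.26 and 1.78. Why Esrrb read higher on arrays labelled KO was not tested. The array does not say which part of the transcript a deletion removed, so this probe is no check of the labels. Every direction below belongs to the arrays labelled KO and the arrays labelled Rescue. A level here is the log2 processed signal minus the array's 75th percentile, a change is KO minus Rescue of these levels, and a gene was called where the p, adjusted over 16022 genes by Benjamini-Hochberg, was below 0.05.

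The 3 KO arrays read 46.6 to 51.1% of all probes above background and the 3 Rescue arrays 53.6 to 59.3%, with negative control spots at 25 to 27 and 24.5 to 26 units. Levels correlated across genes at r of 0.983 to 0.987 among KO arrays and 0.983 to 0.993 among Rescue arrays, against 0.959 to 0.981 between the lines. The 10 stem cell markers were all read in both lines, with a summed level (linear, relative to the 75th percentile) of 336 to 381 on KO arrays and 269 to 271 on Rescue arrays. Of these 10 markers 5 were called higher on KO arrays and 1 lower. Of 14 fibroblast markers, which feeder cells would bring, 6 were not read on any of the 6 arrays (among them Col3a1 and Postn), and the list summed to 3.38 to 4.20 on KO arrays and 3.28 to 4.05 on Rescue arrays. Of the fibroblast markers 1 was called lower on KO arrays and 0 higher. Of 5 macrophage markers 3 were not read, among them Adgre1 and Tyrobp, and 2 were read in each line. Their list summed to 2.81 to 3.86 on KO arrays and 3.22 to 4.57 on Rescue arrays. Of 6 endothelial markers Cdh5, Tie1 and Emcn were not read, and 3 were read in each line, 1 of them called higher on KO arrays. The endothelial list summed to 1.35 to 1.56 on KO arrays and 1.55 to 1.77 on Rescue arrays. Of 5 neural markers 3 were read in each line, 1 of them called higher on KO arrays. Of 7 primitive endoderm markers 5 were read on KO arrays and 7 on Rescue arrays, and 3 were called lower on KO arrays. Of the 10 trophoblast markers 9 were tested and 7 of them were lower on KO arrays; they summed to 10.9 to 16.8 on KO arrays and 147 to 174 on Rescue arrays, and Elf5 was not read. Beside these marker counts, the shares over all genes tested were 7.09% called higher and 11.3% called lower. The part of these markers in the results below was not tested. In a bulk sample, fewer cells of a type and less RNA per cell cannot be told apart.

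Of the 16022 genes tested, 2941 were called (18.4%): 1136 were higher on KO arrays (7.09%) and 1805 were lower (11.3%). At least 1 array read 15685 of them, and of these 1108 were higher (7.06%) and 1805 lower (11.5%), with a median change of 0.00. Most called changes were modest. Among the 12846 genes read on all 6 arrays, 1032 were called higher and 1451 lower. Changes between 0.5 and 1 on the log2 scale held 486 of the higher and 636 of the lower genes, changes between 1 and 2 held 296 and 451, and changes of 3 or more held 12 and 20. Calls of at least 2-fold made up 8.42% of all genes tested. The KO arrays did not overlap the Rescue arrays in 5680 genes (35.5%), 2880 of them called. Genes read in 1 line alone were not evenly split: 1298 genes were below background on all 3 KO arrays but not in the Rescue line, 241 of them called lower, whereas 65 were below background on all 3 Rescue arrays but not in the KO line, 20 of them called higher. The lowest signal read above background was higher on KO arrays, at log2 levels of -4.77 to -3.99, than on Rescue arrays, at -5.66 to -5.53, so a gene of equal level between them was read on Rescue arrays alone. Counting only genes whose mean in the line that read them was above -3.99, there were 251 below background on KO arrays (156 called lower) and 10 below background on Rescue arrays (8 called higher). No chromosome stood far from 0: the medians of the chromosomes lay between -0.06 and 0.04.

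**Figure D1:**
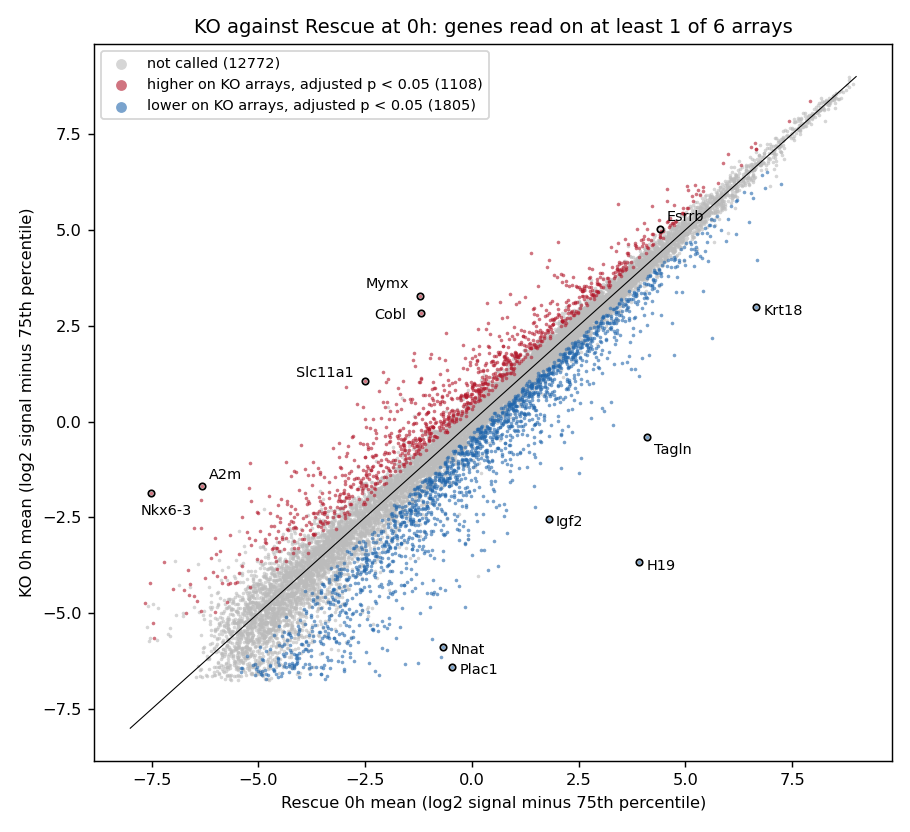
Mean log2 level on the 3 KO arrays (vertical) against the mean on the 3 Rescue arrays (horizontal) for the 15685 genes read on at least 1 of the 6 arrays at 0h; each point is a gene and the line marks equal levels. Red points were higher on KO arrays and blue points lower, and Tagln, Igf2 and H19 lie far below the line while Mymx and Cobl lie far above it.

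The genes highest on KO arrays against Rescue arrays were of mixed kinds. Mymx, a small membrane protein that drives the fusion of muscle precursor cells, had levels of 3.98, 3.07 and 2.80 on KO arrays and -1.79, -0.81 and -1.06 on Rescue arrays. It was 22.8-fold higher (4.51 ± 0.37, SE; adjusted p = 3.49e-06). Cobl, an actin nucleator, had levels of 3.21, 2.13 and 3.13 on KO arrays and -1.11, -1.35 and -1.13 on Rescue arrays, a change of 4.02 ± 0.31. For both genes every KO array lay far above every Rescue array. Crtac1, an extracellular matrix protein, changed by 3.83 ± 0.41, and Slc11a1, a metal ion transporter of phagocyte vesicles, by 3.56 ± 0.42. Sfrp1, a secreted Wnt antagonist, had levels of 1.18, -0.19 and 0.39 on KO arrays and -2.17, -2.67 and -3.24 on Rescue arrays, 8.90-fold higher. The immunoglobulin-domain junction proteins Ildr1 and Jam2 were 8.87-fold and 8.03-fold higher.

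On the lower side, Tagln, an actin-binding protein of smooth muscle, had levels of -0.49, 0.08 and -0.83 on KO arrays and 4.18, 3.63 and 4.47 on Rescue arrays. It was 22.7-fold lower (-4.51 ± 0.32; adjusted p = 2.21e-06). Sct, the gene of the hormone secretin, had levels of -1.28, -0.51 and -1.07 on KO arrays and 2.47, 2.59 and 2.62 on Rescue arrays. Its Rescue arrays lay close together, and it was 11.4-fold lower. Fthl17a, a ferritin-like gene on chromosome X, was 12.3-fold lower; it belongs to a family of near-identical copies whose signals one probe may share. Prtg, a cell surface protein of early neural tissue, was 11.8-fold lower. Slc25a24, a mitochondrial carrier, was 11.1-fold lower, at -3.32, -3.09 and -4.0 on KO arrays and -0.19, -0.58 and 0.77 on Rescue arrays. Enpp2, which makes lysophosphatidic acid, was called lower (-3.69 ± 0.81; adjusted p = 0.00566) but spread widely: -2.66, -0.38 and -3.62 on KO arrays against 1.54, 1.28 and 1.57 on Rescue arrays, with KO array b nearest to the Rescue line. Its change was -4.61 without KO array b and -2.98 without KO array c.

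Some genes were read in only 1 line, so that only a bound can be given. On all 3 KO arrays but no Rescue array, A2m, a protease inhibitor of plasma, was at least 15.1-fold higher, and Nkx6-3, a homeobox factor of the stomach, at least 13.4-fold higher. Calb2, a calcium buffer of neurons, and Cga, the alpha subunit shared by pituitary hormones, were at least 7.10-fold and 7.02-fold higher. On all 3 Rescue arrays but no KO array, Plac1, a placental gene on chromosome X, was at least 15.8-fold lower. Csf1, the growth factor of macrophages, was at least 13.2-fold lower, and the protease Prss23 at least 11.5-fold. The iodide transporter Slc5a5 was at least 7.33-fold lower and the ligand Wnt9a at least 6.95-fold. The other probes of Csf1 and Plac1 were also read on Rescue arrays alone.

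**Figure D2:**
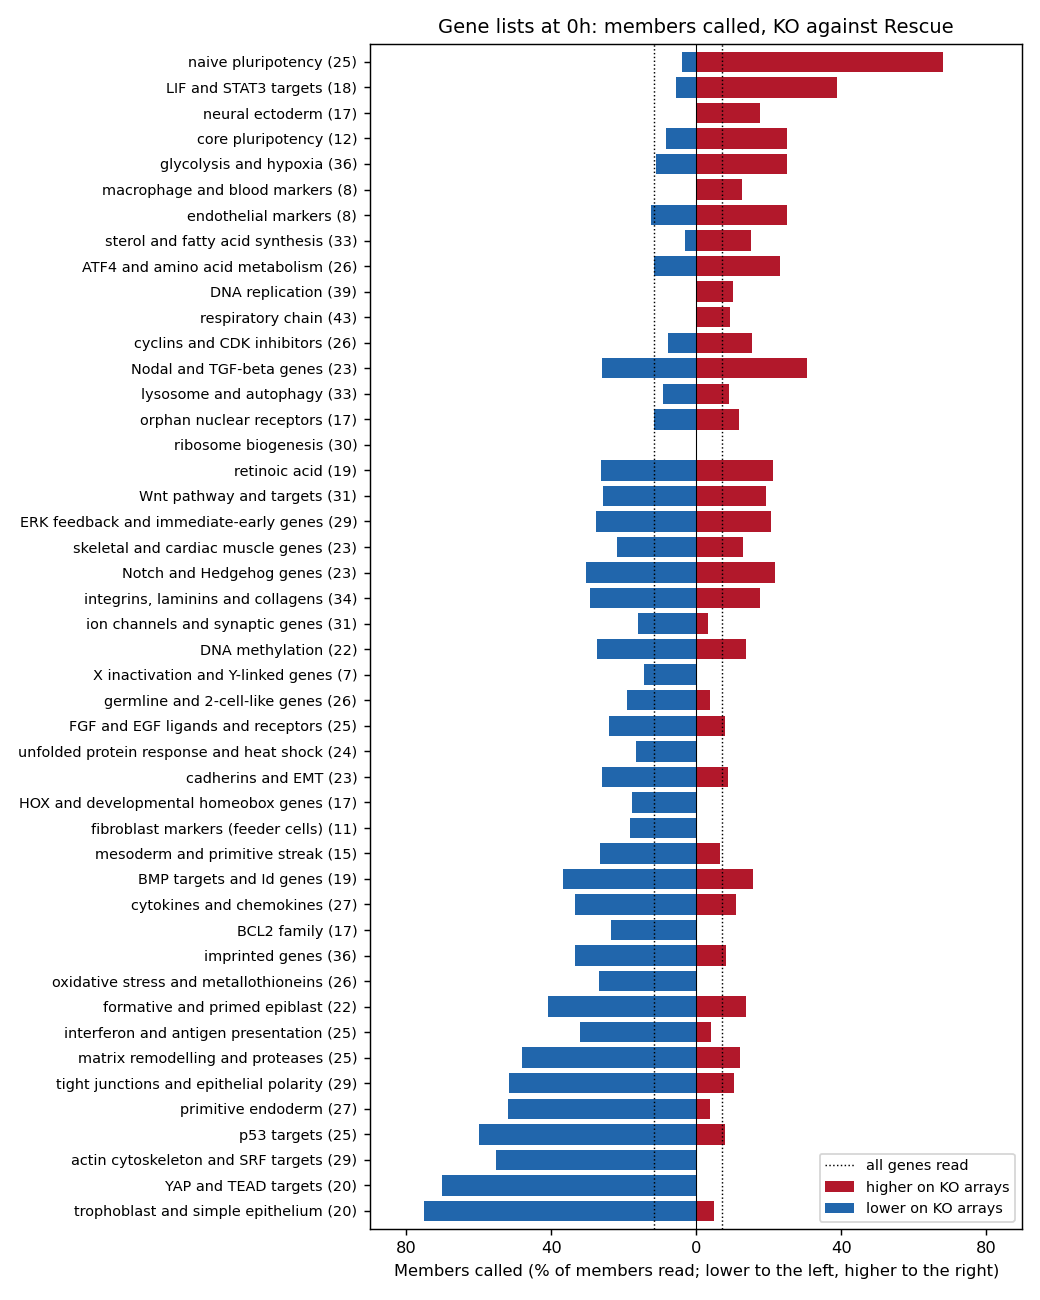
Share of the members read of each of 46 gene lists that were called at 0h, in percent: red bars to the right for genes higher on KO arrays, blue bars to the left for genes lower on KO arrays, with the number of members read in brackets. The dotted lines mark the shares over all genes read, 7.06% higher and 11.5% lower; the YAP and TEAD list reaches 70.0% lower with no member higher, and the naive list 68.0% higher.

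In the list of YAP and TEAD targets most members were lower and none higher. Of 20 genes read, 14 were lower on KO arrays (70.0%, against 11.5% of all genes read) and 0 higher; the median change was -0.86 with genes at their bound, against 0.00 over all genes read. The list includes the coactivators and TEAD factors themselves. No member of it stands in the list of actin and SRF targets.

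Ccn1 and Ccn2 encode secreted matrix proteins that are the standard readout of YAP in many cell types. Ccn1 had levels of 0.04, 0.38 and -0.39 on KO arrays and 2.27, 2.07 and 1.72 on Rescue arrays. It was 4.03-fold lower (-2.01 ± 0.19; adjusted p = 1.14e-05). Ccn2 had levels of 2.74, 3.10 and 2.50 on KO arrays and 4.73, 4.27 and 4.32 on Rescue arrays, 3.17-fold lower. In both genes the highest KO array stayed more than 1 log2 unit below the lowest Rescue array. Ankrd1, a nuclear ankyrin protein, was read on no KO array and on all 3 Rescue arrays, at least 1.87-fold lower. F3, tissue factor, had levels of -0.89, -0.86 and -0.83 on KO arrays and 0.94, 0.78 and 1.48 on Rescue arrays, a change of -1.92 ± 0.18. Ptpn14, a phosphatase that binds YAP, changed by -2.15 ± 0.41, Crim1, a membrane protein that binds BMPs, by -1.65 ± 0.33, and the receptor kinase Axl by -1.24 ± 0.20.

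The list also holds inhibitors of the pathway; the 3 named next are counted among its lower members. Lats2, the kinase that phosphorylates YAP, had levels of -3.32, -3.44 and -3.17 on KO arrays and -2.28, -2.09 and -1.38 on Rescue arrays, 2.63-fold lower. Amotl1 and Amotl2, angiomotins that hold YAP at junctions, changed by -1.33 ± 0.15 and -0.68 ± 0.18, the call of Amotl2 resting on single arrays. Of the DNA-binding partners, Tead3 had levels of -0.17, -0.05 and -0.14 on KO arrays and 0.89, 0.94 and 0.93 on Rescue arrays, 2.06-fold lower. Tead1 changed by -0.82 ± 0.12. Tead2 (0.37 ± 0.28; adjusted p = 0.419) and Tead4 (0.11 ± 0.24; adjusted p = 0.815) were not called. The coactivators were not called either: Yap1 had levels of 4.46, 4.74 and 4.93 on KO arrays and 4.68, 4.86 and 4.66 on Rescue arrays (-0.02 ± 0.15; adjusted p = 0.946), and Wwtr1, which encodes TAZ, differed by -0.00 ± 0.19. Both coactivators overlapped between the lines. The 14 called members did not, which also held for 2880 of the 2941 called genes and for 35.5% of all genes tested. At title 8h, 13 of the 14 were lower on KO arrays again, against 59.8% of all genes lower at 0h. At 8h2h all 14 were, against 57.1%. The count depended on the scaling: it was 6 when arrays were scaled to their median and 10 with no scaling, and 13 to 14 when each of the 6 arrays was left out.

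**Figure D3:**
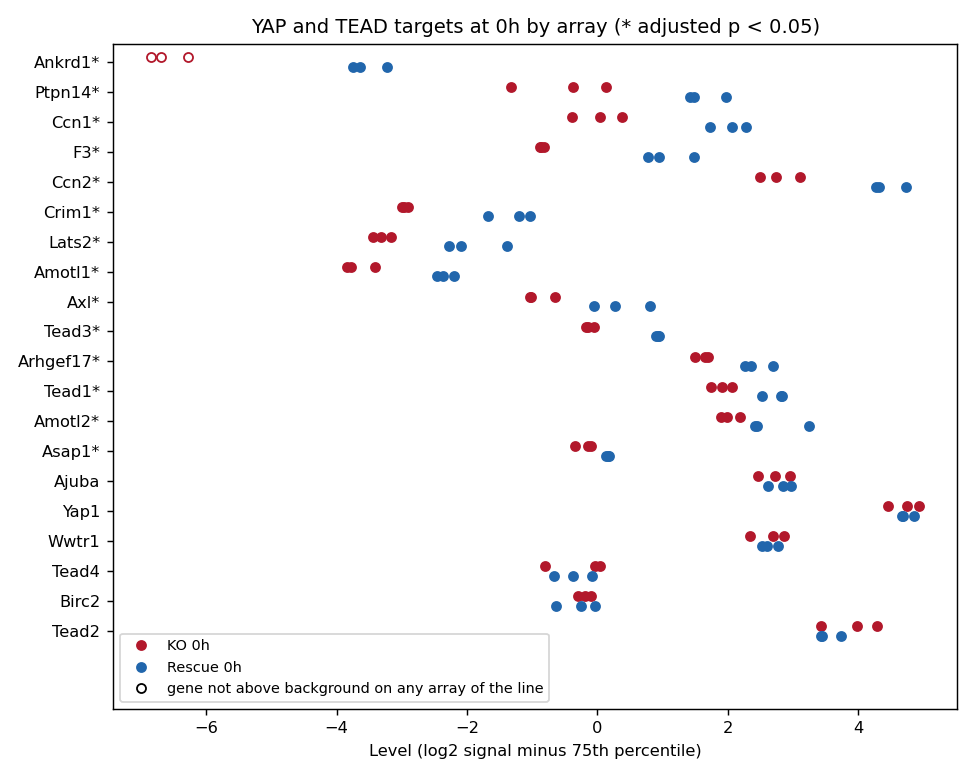
Log2 level (signal minus the array's 75th percentile, horizontal) of the 20 YAP and TEAD list genes on each 0h array, KO arrays in red above Rescue arrays in blue, with open circles where no array of that line was above background. In the 14 genes marked with an asterisk all 3 KO arrays lie left of all 3 Rescue arrays, while Yap1 and Wwtr1 overlap.

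TEAD factors bind the letters GGAATG, read on both strands. RefSeq promoter windows (build GRCm38.p6) were at hand for 15 of the 20 genes, and in the 250 bases before the start the letters stood in 10 of the 15; among the 10 lower genes with a window, 7 held them. Of the 12673 tested genes with a window 10.98% hold them, of the 1406 lower genes 12.02% and of the 856 higher genes 10.05%. Among the 648 genes called lower by at least 2-fold the share was 15.4%, and among the 334 called higher by at least 2-fold it was 10.2%. A match describes the letters only and is no binding site. The list was drawn up as targets of YAP and TEAD, so its share of the letters against all genes says nothing about these arrays. The windows of 4 lower genes are printed 5′ to 3′ on the gene's strand, with the TEAD letters or their reverse complement in capitals; they were chosen after the values were seen, to show where the letters lie before genes that fell.
Ccn1, chr3:145649986-145650235, minus strand: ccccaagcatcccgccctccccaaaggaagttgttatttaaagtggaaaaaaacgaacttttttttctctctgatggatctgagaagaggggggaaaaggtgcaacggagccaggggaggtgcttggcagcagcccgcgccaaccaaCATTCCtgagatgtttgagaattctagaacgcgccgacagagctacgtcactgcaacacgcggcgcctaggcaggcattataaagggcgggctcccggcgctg
Ankrd1, chr19:36119845-36120094, minus strand: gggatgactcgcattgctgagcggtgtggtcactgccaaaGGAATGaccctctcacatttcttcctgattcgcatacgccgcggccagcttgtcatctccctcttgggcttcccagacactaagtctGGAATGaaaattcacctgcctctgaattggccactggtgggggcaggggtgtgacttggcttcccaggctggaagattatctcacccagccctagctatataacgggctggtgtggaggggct
Crim1, chr17:78199998-78200247, plus strand: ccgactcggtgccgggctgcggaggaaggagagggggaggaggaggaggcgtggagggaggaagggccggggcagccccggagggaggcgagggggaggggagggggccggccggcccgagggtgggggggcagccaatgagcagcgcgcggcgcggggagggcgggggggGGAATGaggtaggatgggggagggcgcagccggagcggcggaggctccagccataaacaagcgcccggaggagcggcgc
Ptpn14, chr1:189728018-189728267, plus strand: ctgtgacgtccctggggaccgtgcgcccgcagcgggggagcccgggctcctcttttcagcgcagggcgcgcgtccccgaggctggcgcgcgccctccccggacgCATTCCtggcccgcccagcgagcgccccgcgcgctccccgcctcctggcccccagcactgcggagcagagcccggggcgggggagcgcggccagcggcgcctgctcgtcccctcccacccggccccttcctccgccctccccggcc
The letters begin 103 bases before the start of Ccn1, 79 before Crim1 and 146 before Ptpn14, and Ankrd1 holds them at 210 and 123 bases. Yap1 and Wwtr1, which were not called, also hold them, at 141 and 136 bases.

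Imprinted genes held some of the furthest changes. Of 36 read, 12 were lower on KO arrays (33.3%, against 11.5%) and 3 higher (8.33%, against 7.06%), with a median of -0.13. Igf2, the fetal growth factor read from the paternal copy, had levels of -2.38, -1.21 and -4.04 on KO arrays and 1.56, 1.78 and 2.06 on Rescue arrays. It was 20.2-fold lower (-4.34 ± 0.58; adjusted p = 0.000151), with all 3 KO arrays below 0 and all 3 Rescue arrays above it; without KO array b it was 32.2-fold lower and without KO array c 12.1-fold. H19, the maternal noncoding RNA beside it, had levels of -4.49, -1.75 and -4.77 on KO arrays, 1 of which read it above background, and 6.25, 0.03 and 5.46 on Rescue arrays. It was called lower (-7.58 ± 1.94; adjusted p = 0.0138; 0.0525 to 0.0587 without KO array a or c or Rescue array a or c). This fitted value rests in part on KO arrays below background, and it was -9.53 without Rescue array b and -6.42 without Rescue array a. Rescue array b lay more than 5 log2 units below the other Rescue arrays. Nnat, a paternal gene on chromosome 2 that encodes a membrane proteolipid, was read on no KO array and all 3 Rescue arrays and was at least 13.4-fold lower.

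Some paternally read genes of other clusters were lower too, but not all, and 21 of the 36 genes read were not called. Peg13 had levels of 0.16, -1.17 and -0.57 on KO arrays and -1.42, -1.51 and -1.83 on Rescue arrays. Plagl1 had 3.20, 3.36 and 4.48 against 2.33, 2.79 and 3.23. Kcnq1ot1 overlapped between the lines, at 4.78, 4.88 and 4.72 against 5.38, 4.97 and 4.05. Peg3, a zinc finger factor, had levels of -1.40, -0.57 and -1.23 on KO arrays and 2.11, 1.75 and 0.97 on Rescue arrays, 6.39-fold lower. Sgce and Peg10, neighbours on chromosome 6, were 5.03-fold and 4.30-fold lower, and Magel2 and Ndn, neighbours on chromosome 7, 3.66-fold and 2.14-fold. Dlk1, a Notch-like surface protein on chromosome 12, was 3.76-fold lower (adjusted p = 0.0328), and 2.46-fold lower without Rescue array a (adjusted p = 0.134). Of maternally read genes, Ascl2, a factor of the trophoblast, was 4.96-fold lower. The neighbours of Ascl2 on chromosome 7 moved the other way: Slc22a18, a transporter, had levels of 0.47, 0.18 and 0.19 on KO arrays and -1.76, -1.65 and -1.87 on Rescue arrays, 4.12-fold higher, and Phlda2, a regulator of placental growth, was 2.31-fold higher. Cdkn1c, a cyclin-dependent kinase inhibitor of the same region, overlapped between the lines (0.27 ± 0.28; adjusted p = 0.577). All 12 lower genes were lower again at both later titles, as were 904 of all 1805 genes lower at 0h. With each of the 6 arrays left out, 10 to 12 genes of the list were lower.

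Some imprinted genes differed between the slide letters of 1 line, and again on the later arrays. Mest, a paternal gene on chromosome 6, had levels of 1.59, -3.71 and -7.05 on KO arrays a, b and c, against 2.00, -5.13 and 2.87 on Rescue arrays a, b and c. On the arrays titled 8h the levels were 1.85, -5.65 and -5.11 on KO arrays and 1.80, -5.15 and 1.65 on Rescue arrays, so KO array a and Rescue arrays a and c were again high. H19 was again low on Rescue array b, at 0.49 on the array titled 8h and 0.54 on that titled 8h2h, against 5.68 to 6.81 on Rescue arrays a and c. Mirg, a microRNA host RNA of the Dlk1 region, was high only on the Rescue arrays of letter a, at 2.39, 1.97 and 2.04 on the arrays titled 0h, 8h and 8h2h. Grb10, a growth factor adaptor on chromosome 11, had levels of -4.91, -1.04 and -1.36 on KO arrays and -3.67, -3.63 and -4.20 on Rescue arrays, and KO array a stayed the lowest of its line at the later titles. None of Mest, Mirg and Grb10 was called between the lines.

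Mest, H19, Mirg and Grb10 were among 21 genes that had 1 letter of a line at least 2 log2 units from both other letters at all 3 titles, and 9 of the 21 lie on chromosome X (42.9%, against 3.70% of all genes tested). These genes were chosen by their values and are a description, with no test. Xlr5c, a member of a family of near-identical copies on chromosome X, had levels of -2.85, 1.34 and 2.63 on KO arrays and -7.72, 1.28 and 0.56 on Rescue arrays, low on letter a in both lines. Efhc2, a cilium protein gene, had levels of 1.02, -4.45 and -3.09 on KO arrays and -0.62, 1.53 and -3.19 on Rescue arrays, a different order in each line. Tex13b, a testis gene, was high on KO array a (1.77) and Rescue array c (1.29). Across all genes, deviations from the group mean of the 0h array and a later array of the same line and letter correlated at r of 0.141 to 0.515 in all 12 pairs. The arrays of 1 line and letter at different titles are thus not independent of each other, in these genes and across all genes. As a random block, line and letter had an estimated correlation of 0.251 over all genes. The main fit used no such block.

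**Figure D4:**
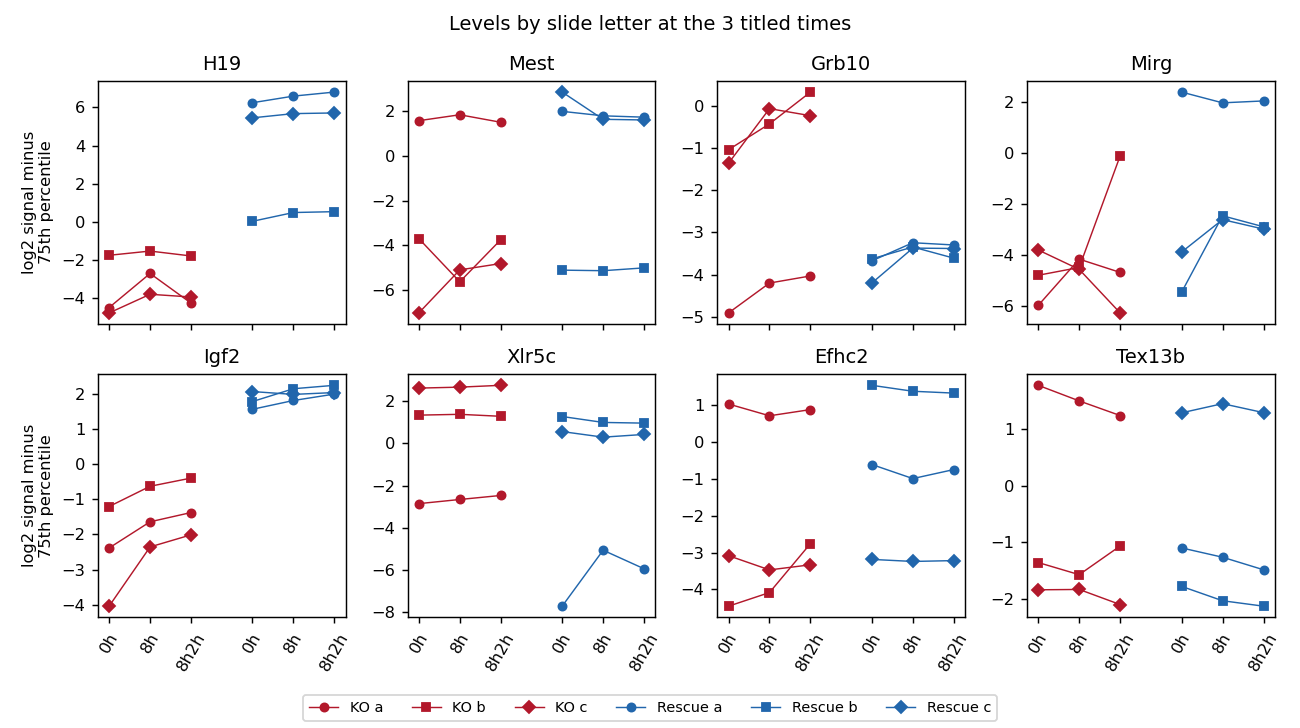
Log2 level (signal minus the array's 75th percentile, vertical) of 8 genes on all 18 arrays, KO arrays in red left of Rescue arrays in blue, with circles, squares and diamonds for letters a, b and c joined across the titles 0h, 8h and 8h2h. Mest is high on KO letter a and on Rescue letters a and c at every title, and Igf2 separates the lines at every title.

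Within the KO line, array b lay nearest to the Rescue line. Among the 2483 called genes read on all 6 arrays, KO array b was the closest of the 3 KO arrays to the Rescue mean in 71.4%, KO array a in 13.0% and KO array c in 15.6%; the Rescue arrays shared this place more evenly, at 34.7, 38.3 and 27.0%. KO array b was nearest in 61.3% of these genes at title 8h and in 50.7% at 8h2h. At 8h2h KO array b had a high background, with 88.6% of probes above background against 52.8% and 48.4% on KO arrays a and c. At 0h KO array b read the lowest share of probes among the KO arrays (46.6%), with the highest reading limit (-3.99). At 8h its share lay between those of KO arrays a and c. The part of signal over background in this ranking was not tested. The median slide difference of the genes called higher was 0.89 on slide a, 0.54 on slide b and 1.04 on slide c, and of the genes called lower -0.83, -0.63 and -1.04. Gadd45g, a stress gene, shows the pattern, with levels of 1.1, 3.1 and 1.02 on KO arrays and 4.66, 4.63 and 4.89 on Rescue arrays. Lef1, a Wnt effector, had levels of -1.14, 1.14 and -1.23 on KO arrays and 1.85, 1.34 and 1.20 on Rescue arrays. Without KO array b Gadd45g was 12.7-fold and Lef1 6.25-fold lower, against 7.93-fold and 3.66-fold with it. Without KO array b 2938 genes were called, without a 2030 and without c 1997. Of the called genes named in this account, Amotl2, Ccng1, Dlk1, Dppa3, Gata4, H19, Il33, Lef1, Nodal, Shmt2, Slc1a5 and Trp53 lost their call without 1 or another single array. Without KO array a, for example, the adjusted p was 0.0647 for Amotl2, 0.0698 for Dlk1 and 0.0678 for Nodal, and without KO array b it was 0.0772 for Trp53.

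Many targets of p53, the factor that answers DNA damage, were lower by small steps. Of 25 read, 15 were lower on KO arrays (60%, against 11.5% of all genes read) and 2 higher (8.0%, against 7.06%), with a median of -0.80. Perp, a desmosome protein, had levels of 1.73, 2.42 and 1.06 on KO arrays and 3.95, 3.85 and 4.66 on Rescue arrays, 5.34-fold lower. Mdm2, the ubiquitin ligase that degrades p53, had levels of 4.18, 4.53 and 4.37 on KO arrays and 5.20, 5.25 and 5.23 on Rescue arrays, 1.83-fold lower. Phlda3, an inhibitor of Akt, was 2.17-fold lower and Ccng1, a cyclin, 1.74-fold. Trp53, which encodes p53 itself, was 1.49-fold higher. Cdkn1a, the cell cycle inhibitor p21, was not called on its brightest probe (-0.39 ± 0.19; adjusted p = 0.182), whereas its other probe was lower (-1.63 ± 0.36; adjusted p = 0.00724 over all probes). Bax, a death effector, was not called (-0.32 ± 0.15; adjusted p = 0.168). This count rested on the scaling: 2 genes of the list were lower with arrays scaled to their median and 4 with no scaling, and 10 were lower without KO array a or without Rescue array a.

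Genes of antigen presentation and the interferon response were lower in part. Of 25 read, 8 were lower on KO arrays (32.0%, against 11.5% of all genes read) and 1 higher (4.0%, against 7.06%). Tap1, which moves peptides into the endoplasmic reticulum, had levels of -3.38, -2.13 and -4.07 on KO arrays and -0.19, -0.25 and -0.01 on Rescue arrays, 8.25-fold lower. Its partner Tap2 was 4.75-fold lower, and Psmb8, a subunit of the immunoproteasome, at least 3.19-fold lower. Irf1, a factor that drives these genes, was 1.95-fold lower, and Gbp2, a guanylate-binding protein read on all 3 Rescue arrays and 1 KO array, was called lower. The class I heavy chain H2-K1 was not called on its brightest probe (-0.64 ± 0.28; adjusted p = 0.139) but was lower on its other probe (-0.66 ± 0.21; adjusted p = 0.0448 over all probes). Its light chain B2m was not called (-0.31 ± 0.19; adjusted p = 0.301). Oas1a, which makes the messenger of RNase L, was 4.78-fold higher. Among 27 cytokines and chemokines 9 were lower (33.3%), Cxcl10 by at least 10.1-fold, Il33 by at least 4.63-fold and Cxcl16 by 5.07-fold. Of the 3 higher (11.1%), Tnfsf9, a ligand of the tumour necrosis factor family, was 2.93-fold higher and Vegfc, a lymphatic growth factor, 1.99-fold.

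Ligands and targets of the BMP, Nodal and Wnt pathways moved in both directions. Of the 19 BMP genes read 7 were lower (36.8%, against 11.5% of all genes read) and 3 higher (15.8%, against 7.06%). Id1 had levels of 1.72, 3.04 and 1.97 on KO arrays and 3.71, 3.77 and 3.83 on Rescue arrays, 2.87-fold lower. Id2 and Id3, its fellow inhibitors of helix-loop-helix factors, were 1.99-fold and 3.41-fold lower, and Msx1, a homeobox target, 6.90-fold. The 2 called ligands differed in direction. Bmp8b was 5.31-fold lower, whereas Bmp4 had levels of 2.23, 1.99 and 2.17 on KO arrays and 0.76, 0.52 and 0.80 on Rescue arrays, 2.71-fold higher. Smad6, an inhibitor of the pathway and itself a target of it, was 2.55-fold higher.

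In the Nodal and TGF-beta list 7 of 23 genes were higher (30.4%, against 7.06% of all genes read) and 6 lower (26.1%, against 11.5%). The list median was -0.10, and 0.04 with no scaling, which also moved the median of all genes tested from -0.02 to 0.12. Inhbb, an activin subunit, was 5.26-fold higher, Lefty2, a Nodal antagonist, 3.11-fold and Pmepa1, a brake on TGF-beta, 3.01-fold. Nodal had levels of 3.73, 4.07 and 3.87 on KO arrays and 4.44, 4.42 and 4.41 on Rescue arrays, 1.45-fold lower, and Lefty1 was not called (0.04 ± 0.72; adjusted p = 0.980). In the Wnt list 6 of 31 genes were higher (19.4%, against 7.06%) and 8 lower (25.8%, against 11.5%). Wnt4 had levels of -4.61, -3.59 and -4.69 on KO arrays, 2 of which read it, and -0.20, -0.52 and -0.18 on Rescue arrays, and was called lower (adjusted p = 5.6e-05). Wnt7b was 4.47-fold lower. Fzd5, a Wnt receptor, was 3.91-fold higher. Axin2, a common target of beta-catenin, had levels of -3.09, -3.40 and -3.69 on KO arrays and -3.15, -3.47 and -3.54 on Rescue arrays, and was not called (-0.01 ± 0.19; adjusted p = 0.986).

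Of 29 genes of tight junctions and epithelial polarity, 15 were lower (51.7%, against 11.5% of all genes read), 3 higher (10.3%, against 7.06%) and 11 not called; 4 were lower with arrays scaled to their median. Cldn7 had levels of 0.64, 0.74 and 0.04 on KO arrays and 2.29, 2.30 and 2.98 on Rescue arrays, 4.14-fold lower. The claudin Cldn6 was 2.91-fold lower and the junction plaque protein Cgn 3.39-fold. Jam2 had levels of 4.56, 3.79 and 4.82 on KO arrays and 1.81, 1.37 and 0.97 on Rescue arrays, and the gap junction subunit Gjb5 was 4.57-fold higher. Among 25 genes of matrix remodelling 12 were lower (48.0%) and 3 higher (12%), with Timp1, an inhibitor of metalloproteases, 1.98-fold higher. Of 34 integrins, laminins and collagens, 10 were lower (29.4%), with Itga3 3.68-fold and Col4a2 3.29-fold, and 6 higher (17.6%), with Itga9 4.10-fold, Nid1 2.78-fold and Lama1 2.26-fold.

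Genes that write, erase or guard DNA methylation split. Tet2, an enzyme that oxidises methylcytosine, had levels of 2.81, 2.29 and 2.97 on KO arrays and 0.48, 0.72 and 0.90 on Rescue arrays, 3.97-fold higher. Zfp57, a zinc finger factor that guards methylation at imprinted regions, had levels of 1.93, 1.56 and 2.16 on KO arrays and 0.04, 0.01 and 0.03 on Rescue arrays, 3.63-fold higher. Prdm14, a germ cell and naive state factor, was 2.33-fold higher. Dnmt3b, a de novo methyltransferase, had levels of 4.83, 5.75 and 5.0 on KO arrays and 6.37, 6.33 and 6.78 on Rescue arrays, 2.46-fold lower, and its cofactor Dnmt3l was 1.70-fold lower. Dnmt1 and Tet1 were not called, with differences of 0.29 ± 0.22 and 0.08 ± 0.11. Dnmt3a was not called on its brightest probe (-0.41 ± 0.21), whereas its other probe was lower (-1.22 ± 0.19; adjusted p = 0.000473 over all probes). Of 26 germline and 2-cell genes 5 were lower (19.2%, against 11.5% of all genes read) and 1 higher (3.85%, against 7.06%). Dppa3, an egg and germ cell factor, was 10.6-fold lower (adjusted p = 0.0184); it was 18.5-fold lower without KO array b and 6.75-fold without KO array c (adjusted p = 0.0891). The X-linked homeobox genes Rhox6 and Rhox9 were 6.11-fold and 6.38-fold lower.

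Metabolic lists held a few genes each that were higher on KO arrays. Of 36 genes of glycolysis and hypoxia, 9 were higher (25%, against 7.06% of all genes read) and 4 lower (11.1%, against 11.5%). Pfkp, a phosphofructokinase, had levels of 3.59, 2.68 and 3.12 on KO arrays and 0.88, 0.82 and 0.29 on Rescue arrays, 5.54-fold higher. Hk1, a hexokinase, was 2.80-fold higher and Ldhb, a lactate dehydrogenase subunit, 2.65-fold, whereas Ldha was not called on its brightest probe (0.04 ± 0.11; adjusted p = 0.853) but was higher on its other probe (0.65 ± 0.14; adjusted p = 0.00633 over all probes). Of 26 genes of ATF4 and amino acid metabolism 6 were higher (23.1%) and 3 lower (11.5%, the share of all genes read). The glutamine carrier Slc1a5 was 1.85-fold higher, a call that was lost whichever of the 6 arrays was left out (adjusted p of 0.0558 to 0.144), and the mitochondrial enzyme Shmt2 1.81-fold. Cebpb was 2.84-fold and Atf3 at least 6.34-fold lower. Of 26 oxidative stress genes 7 were lower (26.9%) and 0 higher, with Gpx3 2.82-fold and Prdx6 2.07-fold. At the other end, of 30 ribosome biogenesis genes 0 were called, and of 39 DNA replication genes 4 were higher (10.3%) and 0 lower.

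The pluripotency lists are given in short. Of 25 naive genes 17 were higher (68.0%, against 7.06% of all genes read) and 1 lower, and of 18 LIF and STAT3 genes 7 were higher (38.9%). Nr0b1, an orphan receptor of chromosome X, had levels of 3.58, 3.43 and 3.60 on KO arrays and 1.46, 1.51 and 1.66 on Rescue arrays, 3.99-fold higher. Klf4 was 4.79-fold and Tfcp2l1 4.05-fold higher. Of 22 formative genes 9 were lower (40.9%, against 11.5%), among them Pou3f1 by 3.68-fold and Fgf5 by at least 2.64-fold. Another 3 were higher (13.6%, against 7.06%), and of the 9 lower genes 2 were lower again at 8h and 2 at 8h2h. Of 27 primitive endoderm genes 14 were lower (51.9%), among them Gata4 by at least 2.32-fold, and 1 was higher (3.70%). Rlim, an X-linked ubiquitin ligase, was 4.32-fold lower.

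More of the called genes than not were called again on the later arrays, which are of the same lines and letters. Of the 1136 genes higher at 0h, 632 were higher again at title 8h (55.6%, against 9.16% of all genes called higher there) and 635 at 8h2h (55.9%, against 9.55%). Of the 1805 genes lower at 0h, 1080 were lower again at 8h (59.8%, against 12.4%) and 1030 at 8h2h (57.1%, against 12.3%). In all, 525 genes were higher and 904 lower at all 3 titles, while 356 of the higher and 570 of the lower genes were called at neither later title. Few were called on the other side later: 32 of the higher genes were lower at 8h, and 19 of the lower genes higher. The test of the line difference at 8h minus that at 0h called 2.28% of all genes (1.07% upward, 1.21% downward), and the same test for 8h2h called 2.02% (1.19% upward, 0.83% downward). Timp1 was 1.98-fold higher on KO arrays at 0h, but its change was -1.06 at 8h and -1.35 at 8h2h. Cdx2, a trophoblast factor read on no KO array at 0h and at least 5.46-fold lower there, differed by -0.01 at 8h. Lama1, Igf2, Ccn1 and Tet2 kept their side, with changes at 8h of 0.85, -3.52, -1.30 and 2.18.

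**Figure D5:**
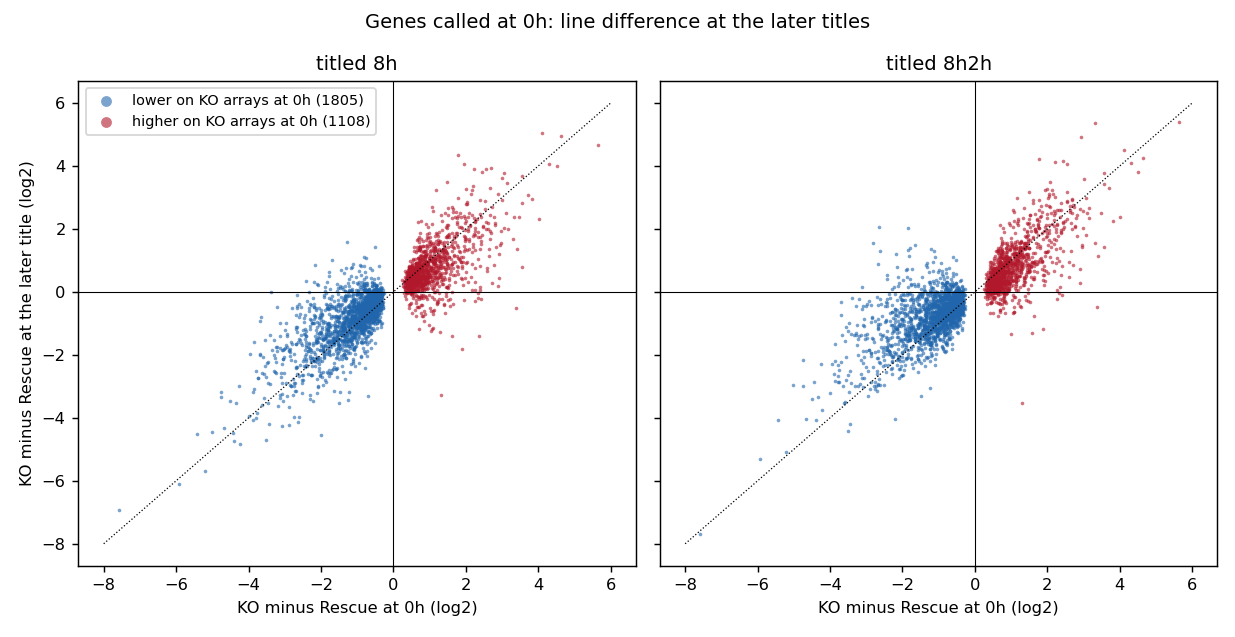
KO minus Rescue (log2) at the titles 8h (left) and 8h2h (right), vertical, against KO minus Rescue at 0h, horizontal, for genes called at 0h and read on at least 1 0h array; red genes were higher and blue genes lower on KO arrays at 0h, and the dotted line marks equal changes. Most genes lie at the lower left and upper right, with the same sign at both titles.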

How the data were processed

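Expression was measured on 18 one-colour Agilent arrays, of which the 6 titled 0h are compared here. Spots were extracted by the authors in Agilent Feature Extraction 12.0.1.1, per the file headers. The deposited processed signal is an intensity, background-subtracted within the array but not scaled across arrays. The authors' table of values was identical to it in all 1133568 spots. The deposited spot flags (other values) and the spot and local background intensities were also used. The labels name Cy5, whereas the file headers describe 1 green channel.

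Of 56605 probes 32994 were matched to 22911 symbols through RefSeq transcripts, and a probe was kept if every array of some group read it well above background, by at least 50% of its spots. Each gene was read from its brightest kept probe, giving 16022 genes. Of 50 named genes with other kept probes, 33 had the same call on all; 13 were called while another probe was not (Axl, Cgn, Dlk1, Dnmt3b, Egfr, Hk1, Il33, Irf1, Lats2, Lfng, Mdm2, Shmt2 and Zeb1), 4 were not called while another probe was, and 0 were called in opposite directions. Levels are log2 processed signal minus the array's 75th percentile of all non-control spots. All 18 arrays entered 1 model of 6 groups in limma 3.58.1 (R 4.3.3; files read with version 1.17.8 of data.table), so SE and adjusted p also rest on arrays outside the comparison; tests are two-sided, calls are at a Benjamini-Hochberg adjusted p below 0.05, and all adjusted p-values come from limma. A gene with no array of a line above background has only a bound ("at least"), set against the lowest signal read above background on those arrays; its fitted change is no measured fold.

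The comparison, its gene lists (46, with 95 of 1168 symbols in more than 1) and its rules were chosen with earlier results of these data known. Named genes were the 15 highest and 15 lowest called genes read on all 6 arrays, the 10 largest bounds each way, up to 6 called members of each list, fixed genes, and up to 3 promoters each way. One list member that the rule names is not reported here. Another 46 genes were named after their values were seen, mainly further members of the YAP and TEAD, imprinted, p53 and DNA methylation lists and the genes that differed by letter. Peg13, Plagl1 and Kcnq1ot1 were named, also with their values seen, as imprinted genes that were not lower. Deviations of KO and Rescue arrays of 1 slide at 0h correlated at r = 0.148, 0.0438 and 0.176 for letters a, b and c. Over all titles and lines, 28 of 45 pairs of arrays from 1 slide correlated at r over 0.1 (median 0.141, highest 0.733). The letters were not used as a block in the main fit. Alternatives were scaling to the median, no scaling, quantile normalization, normexp (offset 50), other filters and probe rules, the letter as a block, the compared arrays alone, a trended robust prior, a minimum of 2-fold, and each array left out in turn; line and letter as a random block was added after seeing the data. The procedure was tested on simulated data. The number of arrays limits the precision.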

Additional observations from a re-analysis of the deposited data

Results flagged for a closer look

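For 15 genes named above the difference between the lines was tested and found not to be the same at a later title as at 0h, by the interaction in limma (adjusted over 16022 genes). These tests share the 0h arrays with the 0h comparison. Values are KO minus Rescue at the later title minus the same at 0h, on the log2 scale.

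At title 8h the difference was 3.39 for Cdx2, 1.92 for Pou3f1, 1.83 for Cxcl16, 1.30 for Itga3, 1.06 for Dnmt3l, 0.99 for Tead3 and 2.26 for Atf3, all of which were lower on KO arrays at 0h and nearer to the Rescue arrays at 8h. Cdx2 and Atf3 were read on no KO array at 0h, so their values are not measured differences. It was -2.05 for Timp1, -1.61 for Phlda2 and -2.35 for Inhbb, which were higher on KO arrays at 0h. Nr0b1, higher on KO arrays at 0h, was further apart at 8h, by 1.26. Dnmt3a (1.91), Tet1 (0.83) and Cdkn1a (-1.18) were not called at 0h.

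At title 8h2h it was 3.19 for Cdx2, 2.20 for Atf3, 1.79 for Pou3f1, 1.43 for Cxcl16, 1.15 for Itga3 and 0.85 for Dnmt3l. It was -2.33 for Timp1 and -1.48 for Phlda2, 1.28 for Nr0b1, 1.69 for Dnmt3a and 0.67 for Tet1. Esrrb stood at 1.60 (adjusted p = 0.0428): its change was 2.23 at 8h2h, higher on the KO arrays, against 0.63 at 0h.

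Beyond the named genes, 680 of 10850 kept probes without a symbol were called at 0h, 357 higher and 323 lower on KO arrays. This is a smaller share than the 18.4% of all genes tested. These calls came from a separate fit of genes and such probes together, adjusted over 26872 rows. The probes are not identified here.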

How the results depend on the processing

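The 2941 genes called at 0h (1136 higher and 1805 lower on KO arrays, 38.6% higher) depended most on the scaling. They were 838 with arrays scaled to their median (178 higher and 660 lower, 21.2% higher) and 1011 with no scaling (465 higher and 546 lower), which moved the median of all genes by 0.14. With the 0h arrays alone and the replicate block they were 1354, with a 2-fold minimum 1349, and with each array left out 1997 to 2938. The other settings gave 1969 (only the arrays compared) to 4145 (without KO_8h2h array b, which had a high background). The replicate block in the full fit gave 3522 and line and letter as a random block 3015. At 0h the arrays of letters a and c paired the lines at r over 0.1, and those of letter b did not. Of 305 genes that the rule or the text names, 119 lost their call with median scaling, 94 with no scaling, 95 with the 0h arrays alone and the replicate block, 68 with a 2-fold minimum, 55 with only the arrays compared and 14 to 49 with each 0h array left out. No call of a named gene reversed under any of these settings. Under the other scalings and normexp the p53 list had 2 to 17 genes lower, tight junctions 4 to 14 lower, the naive list 6 to 17 higher, glycolysis 1 to 9 higher and the ATF4 list 0 to 7 higher. Integrins, laminins and collagens had 2 to 11 lower, oxidative stress 1 to 8 lower and DNA methylation 1 to 7 lower.

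At title 8h, 3450 genes were called, 1050 with median scaling, 1211 with no scaling and 1494 with a 2-fold minimum (3318 to 3964 with a 0h array left out). At 8h2h, 3493 were called, 1999 with median scaling, 1264 with no scaling, 1426 with a 2-fold minimum, 7490 with no filter, 2072 with only the arrays compared and 341 with the replicate block as well (3334 to 4051 with a 0h array left out). The line difference at 8h minus that at 0h was called in 365 genes, 48 with median scaling, 54 with no scaling, 236 with no filter, 755 without the high-background array, 739 with the random block and 227 to 464 with a 0h array left out. That at 8h2h was called in 324 genes, 190 with normexp, 35 with median scaling, 45 with no scaling, 157 with no filter, 81 with only the arrays compared, 74 with the replicate block as well, 507 without the high-background array, 789 with the random block and 157 to 430 with a 0h array left out. The cause of these shifts was not tested. Signal over background limits which genes can be read, and 337 genes tested were below background in both lines at 0h.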

Other observations

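Other gene lists of the 0h comparison moved by single members, and their values are given as a description. Of 25 FGF and EGF ligands and receptors 6 were lower on KO arrays (24.0%, against 11.5% of all genes read) and 2 higher (8.0%, against 7.06%). Egfr, the epidermal growth factor receptor, changed by -2.10 ± 0.27 (SE) on the log2 scale and Fgfr2, an FGF receptor, by -1.17 ± 0.23, whereas Fgf4, a ligand made by stem cells, changed by 1.19 ± 0.21. Of 23 Notch and Hedgehog genes 7 were lower (30.4%) and 5 higher (21.7%), and 0 to 7 were lower under the other scalings and normexp. Hes1, a Notch target, changed by 1.79 ± 0.33, and Lfng, which modifies Notch, by -1.33 ± 0.30. Of 23 cadherin and EMT genes 6 were lower (26.1%) and 2 higher (8.70%): the splicing factor Esrp1, which marks epithelia, changed by -1.53 ± 0.26, and Zeb1, a repressor of epithelial genes, by 1.98 ± 0.35. Of 19 retinoic acid genes 5 were lower (26.3%) and 4 higher (21.1%). Rdh10, which makes retinal, changed by -1.54 ± 0.19, and Crabp1, which binds retinoic acid, by 1.29 ± 0.27. Jun, an AP-1 subunit, changed by -2.10 ± 0.28. Of the other Egfr probes, 1 was not called (-1.15 ± 0.59) and 1 was read on Rescue arrays alone.

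Of the muscle list 3 of 23 genes were higher (13.0%, against 7.06% of all genes read) and 5 lower (21.7%, against 11.5%). Casq2, which stores calcium in heart muscle, changed by 2.25 ± 0.39 and Myl7, an atrial myosin light chain, by 1.95 ± 0.29, while Tnnt3, a skeletal troponin, changed by -1.93 ± 0.24. The promoter letters TCAAGGTCA, which Esrrb binds, stood in the 250 bases before the start of 4 of 856 higher genes (0.467%) and 1 of 1406 lower genes (0.0711%), against 0.253% of the 12673 tested genes with a window. These counts are too small to compare.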
